A study of Mus musculus with 6 samples.

Results

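The genes described here are named for proteins of the cytosolic ribosome, and most encode them. They were chosen by name, as Rpsa and every symbol built like Rpl or Rps with a number, a letter or a stalk protein suffix, without the processed copies whose names end in -ps. The rule found 90 genes among the 55536 entries of the deposited table, and 85 of them had enough counts to be tested. By their names 43 belong to the large subunit, 31 to the small subunit and 3 to the stalk, and 13 are paralogues or near-identical copies. Among the copies, Rpl6l, Rpl32l, Rps3a2, Rps3a3 and Rps12l1 are annotated as processed pseudogenes and Rps4l as a transcribed processed pseudogene.

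RNA was sequenced from 3 livers of Sirt5-/- mice, which lack the gene of the mitochondrial deacylase SIRT5, and from 3 livers of Sirt5+/+ mice. Every animal was a male of the C57BL/6 strain and received by hydrodynamic injection, at 4 weeks of age, 50 µg of a piggyBac plasmid that drives myc-tagged YAP5SA from the CMV promoter, with 10 µg of an Act-PBase transposase plasmid. YAP5SA is an active form of the co-activator YAP, and livers were taken 20 days later, so all 6 livers carried YAP5SA and no liver without it was analysed here. Hydrodynamic injection reaches part of the hepatocytes, and each library holds all the cells of its piece of liver. By the series title, the study asks about SIRT5 loss in liver tumours, with bile acids and immune cells as the suspected link. Whether each liver is another animal is not stated in the labels, and p-values here cover the spread among these 6 samples only.

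The ribosome joins amino acids into protein and consists of ribosomal RNA and about equal numbers of each ribosomal protein. Most ribosomal proteins are needed in every cell, and their genes are among the most strongly expressed in liver and in growing tissue. Their mRNAs are known for the 5′ TOP motif, a C at the cap followed by a run of C and T, through which mTOR and the binding protein LARP1 control their translation and stability. MYC is a known activator of ribosomal protein genes and of the factors that assemble ribosomes.

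The motif can be read in the DNA around the annotated starts, as RefSeq gives them on GRCm38.p6. The windows below run from 20 bases before the start to the tenth base from it, 5′ to 3′ on the gene's own strand, and capitals mark the unbroken run of C and T that begins at the start, as far as the window goes. Rpl35 is shown because it is the gene with the largest change, and it begins with such a run. Rps6, Rps15a, Rps27, Rplp2 and Rpl38 begin with a run too. At the annotated start the paralogues Rps27l and Rpl22l1 and the changed gene Rps3a1 do not. The windows of Rps27l and Rpl22l1 hold a run that opens with a C within 3 bases of that start.
Rpl35, chr2:39005122-39005151, minus strand: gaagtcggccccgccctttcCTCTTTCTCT
Rps6, chr4:86857358-86857387, minus strand: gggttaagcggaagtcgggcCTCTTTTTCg
Rps15a, chr7:118116138-118116167, minus strand: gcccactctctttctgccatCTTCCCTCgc
Rps27, chr3:90213639-90213668, minus strand: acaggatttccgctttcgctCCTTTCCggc
Rplp2, chr7:141447631-141447660, plus strand: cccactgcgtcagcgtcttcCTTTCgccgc
Rpl38, chr11:114668560-114668589, plus strand: ccggaagcggaagcctcgttCTTTCCCCgt
Rps27l, chr9:66946066-66946095, plus strand: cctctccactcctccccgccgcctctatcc
Rpl22l1, chr3:28805488-28805517, plus strand: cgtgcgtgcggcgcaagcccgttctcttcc
Rps3a1, chr3:86142659-86142688, minus strand: gattcttaaagccggaagggCgaaagagca

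A C at the annotated start with at least 4 more C or T directly after it was found in 14 of the 65 ribosomal protein genes with a window (21.5%), and in 813 of 27025 genes of the whole table of starts (3.0%). Only the gene's own strand was searched. With the C allowed within 3 bases of the annotated start, 26 of the 65 genes (40.0%) and 3651 of all genes (13.5%) held such a run. Of the 61 tested genes with a window, the 13 with the run had a median log2 change of 0.45 between genotypes and the 48 without it had a median of 0.24. Genes called higher numbered 1 of the 13 and 4 of the 48 (edgeR, as below), against 17.4% of all tested genes.

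Before the results, 2 libraries stand apart. The share of counts from genes of the mitochondrial genome was 40.8, 21.5 and 17.5% in Sirt5-/- livers 1 to 3, against 7.20, 6.58 and 46.4% in Sirt5+/+ livers 1 to 3. Sirt5-/- liver 1 and Sirt5+/+ liver 3 are thus the richest of their genotype, and the counts of calls, and several genes whose call changes, are also given without both. Totals ran from 19307808 to 24330797 counts. Sirt5 itself had 0.817, 1.24 and 0.497 CPM (counts scaled to a common library total with TMM factors) in Sirt5-/- livers, against 16.7, 15.7 and 12.6 CPM in Sirt5+/+ livers, so each library matched its label. All 10 measured hepatocyte markers were above 0 in every library, as the liver label says.

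Ribosomal protein genes made up a larger part of the nuclear-encoded counts in livers without Sirt5. Without mitochondrial genes and their nuclear copies, the 90 genes took 3.65, 4.52 and 5.16% of counts in Sirt5-/- livers 1 to 3, against 2.11, 1.87 and 1.75% in Sirt5+/+ livers 1 to 3. The genotypes do not overlap on this measure. As a percent of all counts they took 1.70, 3.21 and 3.93% in Sirt5-/- livers, against 1.91, 1.71 and 0.685% in Sirt5+/+ livers. On that scale Sirt5-/- liver 1 lies among the Sirt5+/+ livers, and Sirt5+/+ liver 3 is the lowest of all. The summed TMM-scaled level was 19892, 21504 and 23490 CPM in Sirt5-/- livers, against 19491, 14262 and 17336 CPM in Sirt5+/+ livers. TMM scaling refers each library to its typical gene, and after it the difference between the genotypes is smaller, with Sirt5-/- liver 1 just above Sirt5+/+ liver 1.

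**Figure D1:**
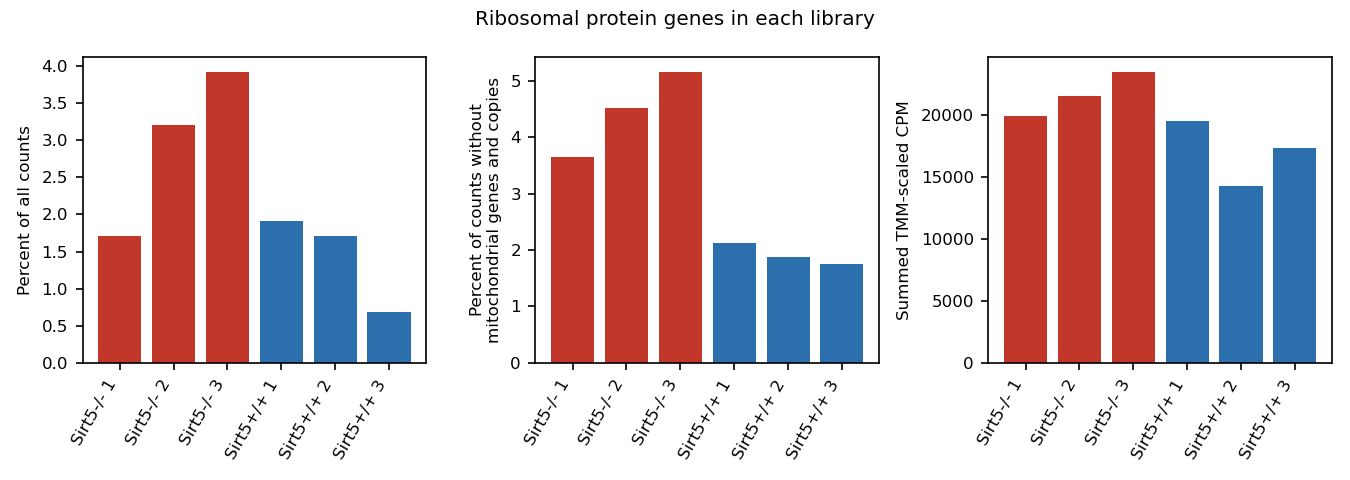
Ribosomal protein genes in each liver (red, Sirt5-/-; blue, Sirt5+/+) as percent of all counts, as percent of counts without mitochondrial genes and their nuclear copies, and as summed TMM-scaled CPM. In the middle panel the Sirt5-/- livers stand at 3.65 to 5.16% and the Sirt5+/+ livers at 1.75 to 2.11%.

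Gene by gene, the shift was small and broad: 7 of the 85 tested genes were higher in Sirt5-/- livers and 0 were lower (edgeR quasi-likelihood test, Benjamini-Hochberg adjusted p under 0.05 over 14799 genes). That is 8.24% higher, against 17.4% of all tested genes called higher and 17.1% called lower. In this fit calls of ribosomal protein genes were thus no more frequent than calls of genes at large. At an unadjusted p under 0.05 there were 14 higher and 0 lower. The 17.4% and 17.1% of all genes called after adjustment also lie under that level, so their shares there are at least as large. DESeq2 called 15 higher and 0 lower (19.9% and 19.5% of all genes), and limma-voom 13 and 0 (20.0% and 17.9%). The authors' deposited table holds 15 higher and 0 lower, against 20.0% and 19.4% of all tested genes, and all 7 genes called here are among its 15. The median log2 change of the 85 genes was 0.38, and that of all tested genes was -0.08. Of the 85 genes 72 had a positive log2 change (84.7%), against 47.1% of all tested genes. The log2 changes ran from -0.91 to 1.17, and 5 passed 2-fold, a count given without its share over all genes.

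The direction of the median held under every scaling tried, though its size did not. With library totals in place of TMM factors the median log2 change was 1.09, while the median of all genes moved from -0.08 to 0.60 and the calls over all genes became 2438 higher and 325 lower, against 2575 higher and 2525 lower. Every Sirt5-/- library exceeded every Sirt5+/+ library for 26 of the 85 genes (30.6%; 25.8% of all tested genes), and the reverse held for 0 (24.0% of all tested genes). The other 59 overlapped.

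**Figure D2:**
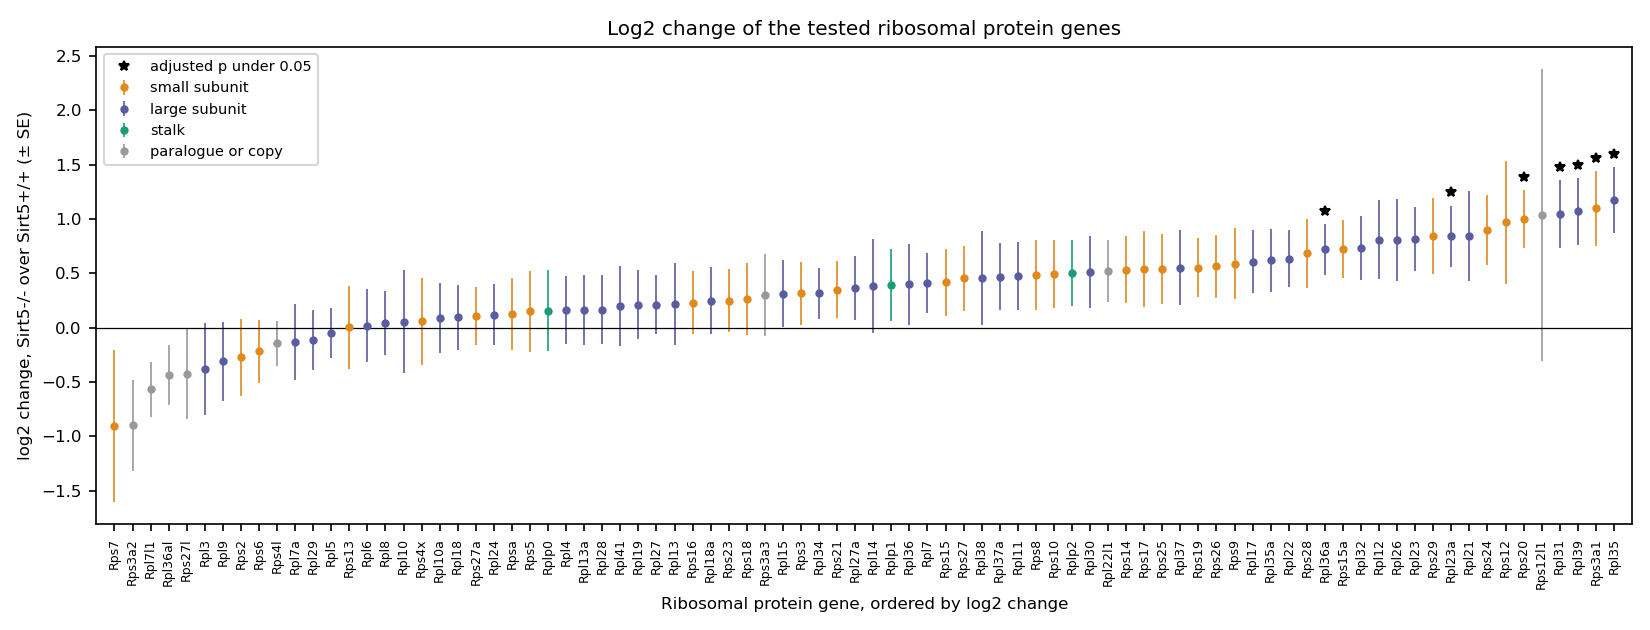
Log2 change (Sirt5-/- over Sirt5+/+, ± SE from the edgeR fit, n = 3 livers each) of 84 of the 85 tested ribosomal protein genes in order, coloured by class. Stars mark the 7 genes with an adjusted p under 0.05, and 71 of the 84 points lie above 0.

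**Figure D3:**
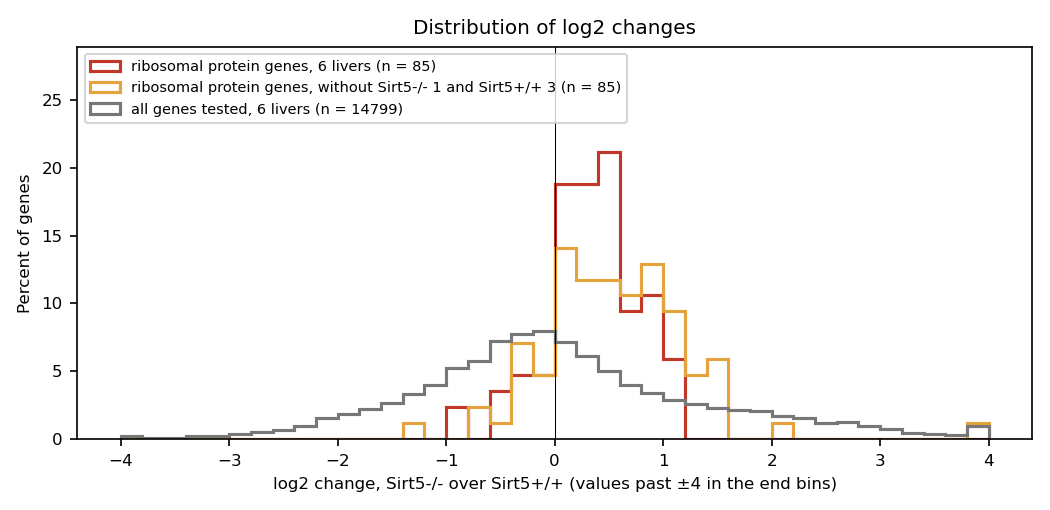
Distribution of log2 changes (Sirt5-/- over Sirt5+/+) as percent of genes, for the 85 ribosomal protein genes in all 6 livers, the same genes without Sirt5-/- liver 1 and Sirt5+/+ liver 3, and all 14799 tested genes. The ribosomal protein genes form a narrow peak with a median of 0.38, inside the wider spread of all genes around -0.08.

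The 7 genes that rose include 5 of the large subunit and 2 of the small subunit. Rpl35 (ENSMUSG00000062997, chr2:39001580-39005624, minus strand, GRCm38) encodes a large subunit protein beside the tunnel through which the new peptide leaves. Its level was 399, 373 and 409 CPM in Sirt5-/- livers 1 to 3, against 173, 133 and 218 CPM in Sirt5+/+ livers 1 to 3. Means of 393 ± 18.6 CPM in Sirt5-/- and 175 ± 42.7 CPM in Sirt5+/+ (SD, n = 3 each) gave a log2 change of 1.17 ± 0.31 (SE; edgeR adjusted p = 0.0191). All 3 Sirt5-/- livers lie close together and well above the highest Sirt5+/+ liver. Of the 31-base words in its transcripts 88.8% also occur in other annotated genes. The overlapping gene Wdr38 shares more of them than any other gene and had 0 to 7 counts in every library. In all, 21 other genes share such words and the rest are not shown, so the change is uncertain in this respect.

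Rpl31 (ENSMUSG00000073702, chr1:39367842-39371911, plus strand), whose protein sits at the rim of the same tunnel, had 279, 296 and 325 CPM in Sirt5-/- livers, against 117, 121 and 198 CPM in Sirt5+/+ livers. Its log2 change was 1.05 ± 0.31 (SE; edgeR adjusted p = 0.0330). The lowest Sirt5-/- liver exceeded the highest Sirt5+/+ liver, which was liver 3. Of the words of Rpl31 42.8% are shared, and Tbc1d8 shares more of them than any other gene. Tbc1d8 had 401, 712 and 571 counts in Sirt5-/- livers, against 345, 553 and 300 counts in Sirt5+/+ livers, before scaling. Rpl39 (ENSMUSG00000079641, chrX:37082520-37085402, minus strand) encodes a small protein that lines the tunnel and had 139, 180 and 217 CPM in Sirt5-/- livers, against 99.5, 61.7 and 94.7 CPM in Sirt5+/+ livers. It rose by 1.07 ± 0.31 on the log2 scale (SE; edgeR adjusted p = 0.0285). Sirt5-/- liver 1 was the lowest of its genotype here but still above every Sirt5+/+ liver.

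Rpl23a (ENSMUSG00000058546, chr11:78180932-78183584, minus strand), at the tunnel exit where the signal recognition particle docks, had 351, 379 and 447 CPM in Sirt5-/- livers, against 218, 204 and 236 CPM in Sirt5+/+ livers. Its log2 change was 0.84 ± 0.28 (SE; edgeR adjusted p = 0.0489), close to the threshold. The Sirt5+/+ livers lie within a narrow range. Of the gene's words 83.0% occur elsewhere, in 48 other genes, so its change is uncertain too. The overlapping gene Tlcd1 shares more of them than any other gene. Tlcd1 had 183, 370 and 325 counts in Sirt5-/- livers, against 551, 700 and 174 counts in Sirt5+/+ livers, before scaling. Rpl36a (ENSMUSG00000079435, chrX:134585654-134588062, plus strand), a protein near the site where spent tRNA leaves, had 94.9, 115 and 116 CPM in Sirt5-/- livers, against 64.8, 63.6 and 69.6 CPM in Sirt5+/+ livers. It rose by 0.72 ± 0.24 on the log2 scale (SE; edgeR adjusted p = 0.0452), the smallest of the 7 changes and the one with the tightest Sirt5+/+ group.

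Of the small subunit, Rps20 (ENSMUSG00000028234, chr4:3831334-3835665, minus strand), a protein of the head of the subunit, had 228, 271 and 292 CPM in Sirt5-/- livers, against 125, 131 and 140 CPM in Sirt5+/+ livers. Means were 264 ± 32.8 CPM in Sirt5-/- and 132 ± 7.71 CPM in Sirt5+/+ (SD, n = 3 each), with a log2 change of 1.00 ± 0.26 (SE; edgeR adjusted p = 0.0203). The genotypes are far apart in all 6 livers, including the 2 that are rich in mitochondrial reads. Rps3a1 (ENSMUSG00000028081, chr3:86137940-86142702, minus strand), which binds initiation factors, had 93.0, 177 and 209 CPM in Sirt5-/- livers, against 67.8, 69.3 and 86.7 CPM in Sirt5+/+ livers. Its log2 change of 1.10 ± 0.34 (SE, edgeR adjusted p = 0.0385) is uncertain, since 76.9% of its words are shared. Rps3a2 shares more of them than any other gene, and the counting could split reads between this pair. The summed level of Rps3a1, Rps3a2 and Rps3a3 was 342, 375 and 369 CPM in Sirt5-/- livers, against 307, 277 and 312 CPM in Sirt5+/+ livers. Means of the sum were 362 ± 17.5 CPM in Sirt5-/- and 299 ± 18.7 CPM in Sirt5+/+ (SD, n = 3 each), and those of Rps3a1 alone were 160 ± 59.9 CPM in Sirt5-/- and 74.6 ± 10.5 CPM in Sirt5+/+. Neither overlaps between genotypes, and the means of the sum lie closer in fold.

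**Figure D4:**
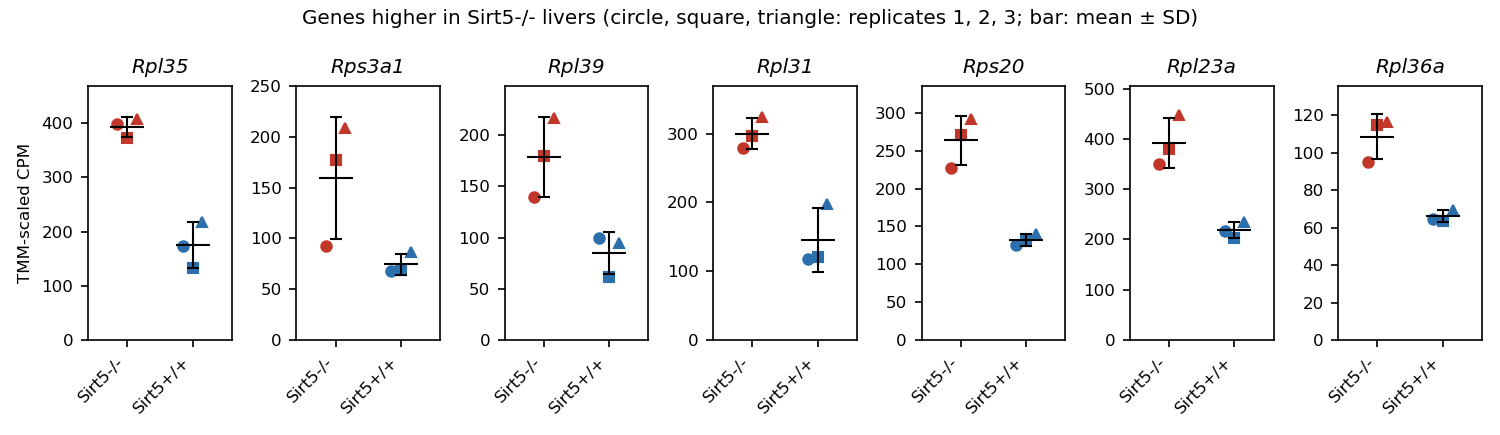
TMM-scaled CPM of the 7 genes that were higher in Sirt5-/- livers, per liver (circle, square and triangle for livers 1, 2 and 3) with mean ± SD (n = 3). In each panel the lowest Sirt5-/- liver is above the highest Sirt5+/+ liver, most narrowly for Rps3a1, with 93.0 against 86.7 CPM.

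The number of calls depended on which livers were included. Without Sirt5-/- liver 2, without Sirt5-/- liver 3 or without Sirt5+/+ liver 2, edgeR called 0 ribosomal protein genes higher, with 5, 4 and 6 at an unadjusted p under 0.05. Of all tested genes these fits called 10.1%, 9.53% and 12.9% higher after adjustment, and at least those shares had an unadjusted p under 0.05. Leaving out Sirt5-/- liver 1 left 3 calls (Rpl39, Rps20 and Rps3a1; 13.2% of all genes), and leaving out Sirt5+/+ liver 1 left 3 (Rpl35, Rpl39 and Rps20; 14.6%). Without Sirt5+/+ liver 3 all 7 calls were kept. There were 29 higher (34.1%, against 25.6% of all genes) and 2 lower (23.4% of all genes), the paralogue Rpl7l1 and the copy Rps3a2. Without both mitochondria-rich livers there were 29 higher (34.1%) and 1 lower, against 25.1% and 22.8% of all tested genes. All 7 genes kept their call. In that comparison of 2 against 2 the median log2 change was 0.54, and Rps12 (2.16 ± 0.28, adjusted p = 0.000467) and Rpl12 (1.47 ± 0.23, adjusted p = 0.00115) were among the genes called by edgeR. Rpl12 is named after its values were seen.

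A further set of genes did not pass although every Sirt5-/- liver was above every Sirt5+/+ liver. There were 19 of these, from Rps24 at the top to Rpl34 at the bottom. With or without a call, this separation was seen in 30.6% of the 85 genes and in 25.8% of all tested genes. The share of all genes with the separation but no call is not given here. Rps24, a small subunit protein whose gene is mutated in some patients with Diamond-Blackfan anaemia, had 365, 404 and 462 CPM in Sirt5-/- livers, against 174, 196 and 291 CPM in Sirt5+/+ livers (log2 change 0.90 ± 0.32, edgeR adjusted p = 0.0608, and 1.28, adjusted p = 0.00684, without both mitochondria-rich livers). Rpl22, a large subunit protein that also binds other RNAs, had 114, 120 and 133 CPM in Sirt5-/- livers, against 73.1, 66.4 and 96.8 CPM in Sirt5+/+ livers (0.63 ± 0.26, adjusted p = 0.0928, and 0.91, adjusted p = 0.0155, without both). Rps19, the gene most often mutated in Diamond-Blackfan anaemia, had 146, 181 and 179 CPM in Sirt5-/- livers, against 130, 89.8 and 124 CPM in Sirt5+/+ livers (0.55 ± 0.27, adjusted p = 0.154). In each of these 3 genes the gap between the groups is smaller than the spread inside 1 of them. Rpl7, a core large subunit protein, had 304, 365 and 387 CPM in Sirt5-/- livers, against 276, 260 and 258 CPM in Sirt5+/+ livers (0.41 ± 0.28, adjusted p = 0.287).

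Rps12 shows how far 1 library can decide a gene. This small subunit protein, whose fly counterpart takes part in cell competition, had 26.6, 27.6 and 35.3 CPM in Sirt5-/- livers, against 8.54, 6.11 and 32.1 CPM in Sirt5+/+ livers (log2 change 0.97 ± 0.57, edgeR adjusted p = 0.219). Sirt5+/+ livers 1 and 2 are well below the rest, and Sirt5+/+ liver 3 is among the Sirt5-/- livers. Its copy Rps12l1, with all of its words shared with other genes, had 31.4, 23.2 and 24.8 CPM in Sirt5-/- livers, against 0, 2.32 and 38.0 CPM in Sirt5+/+ livers (1.04 ± 1.34, adjusted p = 0.586, and 4.33, adjusted p = 0.00410, without both mitochondria-rich livers). Reads of this pair could be split either way. Their sum was 58.0, 50.9 and 60.1 CPM in Sirt5-/- livers, against 8.54, 8.43 and 70.1 CPM in Sirt5+/+ livers, so the sum keeps the same pattern.

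The stalk proteins, which recruit the elongation factors, all overlapped between genotypes. Rplp0, the anchor of the stalk, had 402, 455 and 506 CPM in Sirt5-/- livers, against 592, 363 and 269 CPM in Sirt5+/+ livers (0.16 ± 0.37, edgeR adjusted p = 0.775). Rplp1 had 390, 514 and 545 CPM in Sirt5-/- livers, against 470, 326 and 308 CPM in Sirt5+/+ livers (0.39 ± 0.33, adjusted p = 0.392). Its partner Rplp2 had 162, 200 and 222 CPM in Sirt5-/- livers, against 178, 104 and 129 CPM in Sirt5+/+ livers (0.50 ± 0.30, adjusted p = 0.233). In all 3 genes Sirt5+/+ liver 1 was the highest of its genotype and lay above Sirt5-/- liver 1.

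Rpl5, Rpl11, Rps6 and Rpsa, which have known roles outside the ribosome, overlapped between genotypes and did not pass. Rpl5 and Rpl11, which with 5S RNA bind MDM2 and so stabilise p53, had log2 changes of -0.05 ± 0.23 (edgeR adjusted p = 0.883) and 0.48 ± 0.32 (adjusted p = 0.278). Rpl5 had 53.7, 50.3 and 60.3 CPM in Sirt5-/- livers, against 60.4, 61.0 and 48.7 CPM in Sirt5+/+ livers. Rpl11 had 277, 323 and 370 CPM in Sirt5-/- livers, against 302, 215 and 181 CPM in Sirt5+/+ livers. The groups overlap in both. Rps6, the substrate of S6 kinase, had 278, 215 and 241 CPM in Sirt5-/- livers, against 316, 235 and 303 CPM in Sirt5+/+ livers (-0.22 ± 0.29, adjusted p = 0.590). Rpsa, also known as the laminin receptor, had 643, 646 and 699 CPM in Sirt5-/- livers, against 736, 467 and 623 CPM in Sirt5+/+ livers (0.12 ± 0.33, adjusted p = 0.804). Of these 4 genes only the direction of Rpl11 stayed the same under all alternatives, since Rpl5, Rps6 and Rpsa crossed 0 in at least 1 of them.

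At the low end of the order, none of the 13 genes with a negative log2 change passed. Rps7, a small subunit protein that also binds MDM2, had 19.7, 92.4 and 141 CPM in Sirt5-/- livers, against 201, 215 and 59.2 CPM in Sirt5+/+ livers (-0.91 ± 0.70, edgeR adjusted p = 0.348). Its lowest values are in the 2 mitochondria-rich livers, 1 of each genotype. Rpl3, a protein close to the peptidyl transferase centre, had 72.0, 114 and 123 CPM in Sirt5-/- livers, against 191, 148 and 63.0 CPM in Sirt5+/+ livers (-0.38 ± 0.42, adjusted p = 0.520). Rpl9, at the base of the stalk region, had 80.7, 109 and 129 CPM in Sirt5-/- livers, against 180, 138 and 76.8 CPM in Sirt5+/+ livers (-0.31 ± 0.36, adjusted p = 0.547). In all 3 genes Sirt5+/+ liver 3 was the lowest of its genotype, below the other Sirt5+/+ livers. Rps2, a small subunit protein at the mRNA entry, had 634, 637 and 669 CPM in Sirt5-/- livers, against 1063, 668 and 616 CPM in Sirt5+/+ livers (-0.27 ± 0.36, adjusted p = 0.587).

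Paralogues of ribosomal proteins replace or accompany the standard protein in some tissues, and several were low or absent in these livers. Rpl3l, the form of heart and skeletal muscle, had 1, 2 and 1 counts in Sirt5-/- livers, against 4, 28 and 0 counts in Sirt5+/+ livers. Rpl39l, a testis form, had 0, 7 and 2 counts in Sirt5-/- livers, against 1, 0 and 0 counts in Sirt5+/+ livers. Rpl10l, also of testis, and the pseudogene Rpl32l had no count in any library. The pseudogene Rpl6l had 9.03 counts in Sirt5-/- liver 3 only. A floor of 3 counts corresponds to 0.0827 to 0.393 CPM per library, so levels below that rest on very few reads. These 5 genes did not pass the filter on counts and were not tested.

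The 8 tested paralogues and copies had a median log2 change of -0.29, and 0 passed in either direction by edgeR, with 0 at an unadjusted p under 0.05 and 0 by DESeq2. By limma-voom 1 passed, Rps12l1. Without both mitochondria-rich livers edgeR called Rpl22l1 and Rps12l1 higher and Rps3a2 lower. Rpl7l1, a relative of Rpl7 whose yeast counterpart acts in large subunit assembly, had 26.9, 28.6 and 32.0 CPM in Sirt5-/- livers, against 52.7, 44.8 and 32.0 CPM in Sirt5+/+ livers (-0.57 ± 0.25, adjusted p = 0.119). Rpl36al, a close relative of Rpl36a, had 115, 89.1 and 87.5 CPM in Sirt5-/- livers, against 131, 105 and 158 CPM in Sirt5+/+ livers (-0.43 ± 0.28, adjusted p = 0.256). Rps27l, known as a p53 target, had 156, 123 and 115 CPM in Sirt5-/- livers, against 141, 99.5 and 291 CPM in Sirt5+/+ livers (-0.43 ± 0.41, adjusted p = 0.457). The value of Rps27l in Sirt5+/+ liver 3 is far above the other 5, and without it the log2 change was 0.19.

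Rpl22l1, whose level is known to be held down by Rpl22, had 23.9, 32.4 and 34.0 CPM in Sirt5-/- livers, against 17.6, 17.0 and 28.8 CPM in Sirt5+/+ livers (0.52 ± 0.28, edgeR adjusted p = 0.191, and 0.99, adjusted p = 0.00686, without both mitochondria-rich livers). Rps4l, a transcribed pseudogene related to Rps4x, lay between 18.8 and 24.6 CPM in all 6 livers (-0.14 ± 0.21, edgeR adjusted p = 0.626). Rps4x itself had 149, 213 and 244 CPM in Sirt5-/- livers, against 264, 217 and 101 CPM in Sirt5+/+ livers (0.06 ± 0.40, adjusted p = 0.925). Rps4l is thus the steadiest of these genes, while Rps4x differs within each genotype. Rpl10, a late-joining protein that shapes the tRNA sites and the partner of Rpl10l, had 150, 261 and 312 CPM in Sirt5-/- livers, against 376, 206 and 116 CPM in Sirt5+/+ livers (0.05 ± 0.47, adjusted p = 0.942). Rps3a2 had 65.3, 57.3 and 48.0 CPM in Sirt5-/- livers, against 143, 129 and 45.2 CPM in Sirt5+/+ livers (-0.90 ± 0.42, edgeR adjusted p = 0.131, and -1.32, adjusted p = 0.00316, without both). Of its words 92.9% are shared, and Rps3a1 shares more of them than any other gene.

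The ratio of a paralogue or copy to its partner within a library needs no scaling between libraries, and 7 such ratios were compared. The log2 ratio of Rpl36al to Rpl36a was -0.16 ± 0.38 in Sirt5-/- livers and 0.97 ± 0.23 in Sirt5+/+ livers (SD, n = 3 each), a difference of -1.14. That of Rpl7l1 to Rpl7 was -3.59 ± 0.09 in Sirt5-/- livers and -2.65 ± 0.33 in Sirt5+/+ livers, a difference of -0.94. In both pairs the genotypes do not overlap, and the exact two-sided permutation test gave p = 0.1 for each pair, which is the lowest value possible with 3 livers a genotype (adjusted p = 0.35 over 7 pairs), so neither passed. Rpl36a is 1 of the 7 genes that rose, so the ratio with Rpl36al repeats that change in part. Of the other ratios that of Rpl22l1 to Rpl22 differed by -0.11 (exact p = 0.5), that of Rps27l to Rps27 by -0.75 (exact p = 0.3) and that of Rps4l to Rps4x by -0.28 (exact p = 0.6). The ratios of Rps3a2 and Rps3a3 to Rps3a1 differed by -1.77 (exact p = 0.2) and -0.67 (exact p = 0.3), and all of these 5 overlapped.

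Levels were compared between genes in the authors' TPM, which are scaled per transcript length. By mean TPM the highest were Rpl13a, Rplp1, Rps27, Rpl36 and Rps29. Rpl13a, which in human monocytic cells also silences inflammatory mRNAs, had 991, 1898 and 2370 TPM in Sirt5-/- livers, against 1952, 1584 and 381 TPM in Sirt5+/+ livers. TPM include the mitochondrial genes in their total, and Sirt5+/+ liver 3, with the most mitochondrial reads, is the lowest for all 5 of these genes. Rps29, a zinc-binding protein of the small subunit head, had 789, 1858 and 2342 TPM in Sirt5-/- livers, against 850, 833 and 288 TPM in Sirt5+/+ livers. The zinc-binding protein gene Rps27 had 861, 1762 and 2447 TPM in Sirt5-/- livers, against 1522, 1298 and 278 TPM in Sirt5+/+ livers. Both show Sirt5-/- livers 2 and 3 above every other library. Rplp1 ranged from 890 to 2595 TPM in Sirt5-/- livers and from 273 to 1731 TPM in Sirt5+/+ livers, and Rpl36, uncertain because 94.1% of its words are shared, from 1047 to 2074 TPM in Sirt5-/- livers and from 415 to 1224 TPM in Sirt5+/+ livers. On the TMM scale none of the 5 passed (edgeR, log2 changes from 0.16 for Rpl13a to 0.84 for Rps29, adjusted p from 0.0971 to 0.725), and without both mitochondria-rich livers Rps29 did (1.36, adjusted p = 0.00506).

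Processed copies of ribosomal protein genes are many in the mouse genome and can take reads from their parents. The table holds 300 entries named as -ps copies of such genes, of which 138 had a count and 25 could be tested. Their summed counts equalled 8.87, 9.57 and 9.05% of those of the 90 genes in Sirt5-/- livers, against 6.88, 7.36 and 9.51% in Sirt5+/+ livers. When 299 of the copies were added to their parents, 8 genes were higher and 0 lower (17.4% and 17.1% of all genes), and all 7 of the first calls were among them. Over the 85 genes the median percent of words shared with another gene was 27.9, and 12 genes shared over 50%. Across the 85 genes, which are not independent replicates, the log2 change showed a Pearson r of -0.001 with the shared percent, -0.041 with GC content and -0.058 with transcript length (Spearman rho of -0.121, -0.086 and -0.193).

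The order of the livers within each genotype was counted for each of the 85 genes. Sirt5-/- liver 1 was the lowest of its genotype for 59 of the 85 genes (45.4% of all other tested genes), and Sirt5-/- liver 3 was the highest for 66 (39.6%). Among the Sirt5+/+ livers, liver 2 was the lowest for 47 genes (20.6%) and liver 1 the highest for 45 (35.5%). Sirt5+/+ liver 3 was the lowest for 29 genes (43.5% of all other tested genes) and the highest for 37 (37.4%). On the log2 scale it differed from the mean of the other Sirt5+/+ livers by -1.81 for Rps7, -1.59 for Rps3a2 and -1.42 for Rpl3 at the low end, and by 6.42 for Rps12l1, which had 0 and 2.32 CPM in those livers, 2.14 for Rps12, 1.43 for Rpl38 and 1.29 for Rps27l at the high end. Sirt5-/- liver 1 differed from the other Sirt5-/- livers by -2.53 for Rps7, -1.05 for Rps3a1 and -0.93 for Rpl10 at the low end, and by -0.72 for Rpl3. Rps7 and Rpl3 are thus low in both mitochondria-rich livers. Over the 85 genes these differences of the 2 livers had a Pearson r of 0.445 and a Spearman rho of 0.44, as a description across genes that share each library.

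Levels were also compared with those of the other ribosomal protein genes. Each level was taken relative to the median, within the same library, of the 77 genes that are not paralogues or copies. By this measure 9 genes were higher in every Sirt5-/- liver than in every Sirt5+/+ liver (10.6%, against 16.9% of all tested genes). In 11 genes every Sirt5-/- liver was lower than every Sirt5+/+ liver (12.9%, against 36.8% of all tested genes). The 9 include Rpl23, Rpl23a, Rpl31, Rpl32, Rpl35, Rpl39, Rps20 and Rps24, and they hold 5 of the 7 genes that rose. The 11 are Rpl5, Rpl8, Rpl13a, Rpl24, Rpl29, Rps2, Rps6, Rpsa, the paralogues Rpl7l1 and Rpl36al, and the pseudogene Rps4l. On this relative log2 scale the mean difference between genotypes was 0.73 for Rpl35 and 0.52 for Rps20, and it was -0.89 for Rpl36al, -0.70 for Rps2 and -0.68 for Rps6. Both counts are below the shares over all genes, and no test was made of them.

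**Figure D5:**
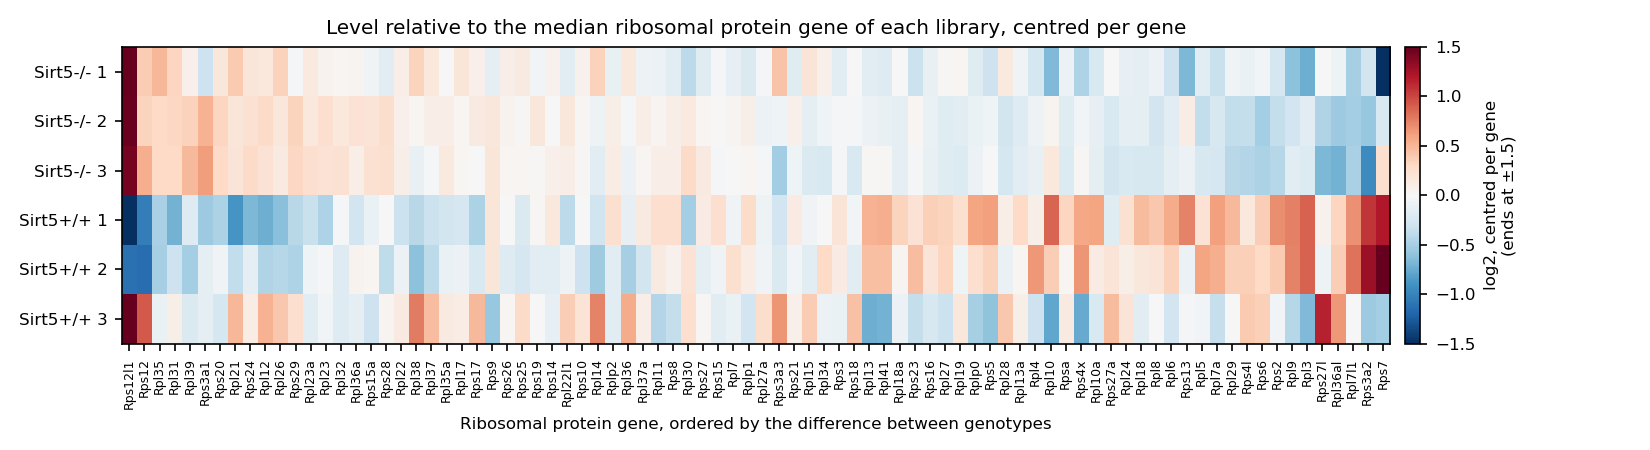
Level of 84 of the 85 tested ribosomal protein genes relative to the median ribosomal protein gene of the same liver, on the log2 scale and centred per gene (red higher, blue lower, colours end at ±1.5). Sirt5+/+ liver 3 departs from the other Sirt5+/+ livers at both ends of the order, with Rps12 high and Rps7 low.

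Other genes of ribosome production and use were called in both directions, against 17.4% of all tested genes higher and 17.1% lower (34.5% either way). Of 45 tested assembly factors 1 rose, 1 fell and 43 did not pass, with a median log2 change of -0.09. Tcof1, the treacle protein that supports ribosomal RNA transcription, rose to 19.2, 22.9 and 23.9 CPM in Sirt5-/- livers, against 9.02, 8.11 and 9.43 CPM in Sirt5+/+ livers (1.32 ± 0.22, edgeR adjusted p = 0.00346). Rcl1, which in yeast is needed to cut the precursor of small subunit RNA, fell to 35.0, 31.8 and 24.8 CPM in Sirt5-/- livers, against 109, 86.1 and 54.1 CPM in Sirt5+/+ livers (-1.45 ± 0.31, adjusted p = 0.00926). Mrto4, an assembly factor that resembles the stalk anchor, did not pass (-0.69 ± 0.29, adjusted p = 0.0989).

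RNA polymerase I, which makes the large ribosomal RNAs, had 1 of 15 tested genes higher and 1 lower. Its promoter factor Taf1b rose by 1.01 ± 0.28 and its largest subunit Polr1a had a log2 change of -0.82 ± 0.23 (edgeR adjusted p = 0.0248 and 0.0256), while the subunit gene Znrd1 did not pass (0.79 ± 0.28, adjusted p = 0.0550). Of 15 genes of RNA polymerase III, which makes 5S RNA and tRNAs, 0 rose and 2 fell, Crcp (-0.82 ± 0.23, adjusted p = 0.0261) and the largest subunit Polr3a (-0.76 ± 0.25, adjusted p = 0.0478), and Polr3g did not pass (-0.96 ± 0.38, adjusted p = 0.0836).

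Of 34 initiation factors 3 fell and 0 rose, with a median log2 change of -0.22. Eif4g1, the scaffold of the cap-binding complex, fell to 76.9, 80.2 and 80.0 CPM in Sirt5-/- livers, against 300, 254 and 98.5 CPM in Sirt5+/+ livers (-1.46 ± 0.41, edgeR adjusted p = 0.0254). Eif2b4, a subunit of the exchange factor of eIF2, and Eif4b, a helper of the helicase eIF4A, had log2 changes of -1.31 ± 0.29 (adjusted p = 0.00971) and -0.84 ± 0.26 (adjusted p = 0.0374). Of 19 elongation factors and other genes known for a 5′ TOP motif 1 rose and 1 fell. Hnrnpa1, an RNA-binding protein, rose to 76.3, 100 and 105 CPM in Sirt5-/- livers, against 34.8, 49.2 and 42.8 CPM in Sirt5+/+ livers (1.15 ± 0.26, adjusted p = 0.0110), and Eif4b was the gene that fell. Eef2, which moves the ribosome along the mRNA, had 422, 462 and 509 CPM in Sirt5-/- livers, against 1632, 1083 and 375 CPM in Sirt5+/+ livers (-1.15 ± 0.52, adjusted p = 0.124), with Sirt5+/+ liver 3 below all the Sirt5-/- livers. Eef2 passed, as lower, without Sirt5+/+ liver 3 (-1.49, adjusted p = 0.00506), without both mitochondria-rich livers (-1.43, adjusted p = 0.0111) and in DESeq2 (-1.14, adjusted p = 0.0430), and the authors' deposited table has it at -1.08 (adjusted p = 0.0499). Fau and Rack1, ribosomal proteins whose names fall outside the rule, had log2 changes of 0.18 ± 0.30 and 0.22 ± 0.34 and did not pass (edgeR adjusted p = 0.688 and 0.649).

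Of 17 genes that control growth or TOP mRNAs 1 rose and 4 fell (5 genes, against 34.5% of all tested genes called either way). Myc rose to 32.5, 32.9 and 38.2 CPM in Sirt5-/- livers, against 9.92, 6.89 and 10.5 CPM in Sirt5+/+ livers (1.93 ± 0.25, edgeR adjusted p = 0.00188), and it passed in all 19 alternatives. Larp1b, a relative of the TOP mRNA binder LARP1, had a log2 change of -1.36 ± 0.23 (adjusted p = 0.00390), and Tsc1, an inhibitor of mTOR signalling, of -1.19 ± 0.25 (adjusted p = 0.00815). The other two, named after their values were seen, were Mtor itself (-1.10 ± 0.28, adjusted p = 0.0170) and the translation repressor gene Eif4ebp2 (-1.29 ± 0.33, adjusted p = 0.0180). Of 10 genes of ribosome quality control and the p53 response 3 rose and 2 fell, beside the same 34.5%. Cdkn1a, the p53 target that encodes the cell cycle inhibitor p21, rose to 58.0, 55.4 and 73.3 CPM in Sirt5-/- livers, against 8.54, 7.03 and 12.1 CPM in Sirt5+/+ livers (2.77 ± 0.29, adjusted p = 0.00148). Zmat3, another p53 target, rose by 1.31 ± 0.26 (adjusted p = 0.00602), and Hbs1l, which rescues stalled ribosomes, had a log2 change of -1.27 ± 0.23 (adjusted p = 0.00503). Trp53 (0.77 ± 0.26, adjusted p = 0.0482) and Ascc3, a helicase that splits collided ribosomes (-0.94 ± 0.30, adjusted p = 0.0413), were named after their values were seen. Polr3a and Ascc3 passed in 7 of 19 alternatives each, Eif4b in 9, Trp53 in 10, Crcp and Polr1a in 11, Eif4g1 in 12, Taf1b in 13, Mtor in 14 and Eif4ebp2 in 15, and the other called genes of these lists in 16 to 19. With library totals only Tcof1, Myc, Cdkn1a and Zmat3 of the genes named from these lists still passed, and Polr1a, Crcp and Polr3a moved to -0.17, -0.22 and -0.15.

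Marker levels of several cell types differed with genotype as well. Hepatocyte markers fell in 8 of 10 genes, and their summed level was 19129 to 37925 CPM in Sirt5-/- livers and 85132 to 109931 CPM in Sirt5+/+ livers. Proliferation markers rose in 6 of 6 (67.8 to 112 CPM in Sirt5-/-, 25.1 to 37.7 CPM in Sirt5+/+), and macrophage and monocyte markers rose in 5 of 8 and fell in 1 (1019 to 1975 CPM in Sirt5-/-, 301 to 392 CPM in Sirt5+/+). Stellate cell markers rose in 4 of 7 (1038 to 1290 CPM in Sirt5-/-, 264 to 385 CPM in Sirt5+/+), bile duct markers in 2 of 5 (739 to 817 CPM in Sirt5-/-, 76.9 to 386 CPM in Sirt5+/+) and T and NK cell markers in 5 of 7 (27.9 to 32.8 CPM in Sirt5-/-, 4.18 to 8.52 CPM in Sirt5+/+). B and plasma cell markers rose in 1 of 6, endothelial markers fell in 3 of 5 and red cell markers in 1 of 5, and the neutrophil markers had 1 tested gene, which did not pass. Only Nkg7 and Mzb1, both in Sirt5+/+ liver 3, were at 0 among the tested markers. The part of these marker differences in the levels of ribosomal protein genes was not tested, and in bulk RNA fewer cells of a type and less RNA per cell cannot be told apart.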

How the data were processed

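Per the submitters' processing notes the authors used DESeq2 1.24.0, RSEM 1.3.1 and HISAT2 2.1.0; their roles and options, like the genome build, are not given in the sources used here. IDs and names of all 55536 entries match GENCODE M21, so gene coordinates are on GRCm38. The expected counts deposited by the authors, of which 18.5% are not whole, were rounded. TPM as deposited by the authors were used only for levels between genes. The authors' deposited log2 fold changes and p-values were used only for comparison.

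Genes were filtered with filterByExpr (minimum count 10, minimum total 15), scaled with TMM factors and tested for genotype with the edgeR 4.0.16 quasi-likelihood test (R 4.3.3), with Benjamini-Hochberg adjustment over 14799 genes and a threshold of 0.05. SE is the absolute log2 change over the root of the F statistic. CPM carry the TMM factors, which ran from 0.396 to 1.68. The steps were run on simulated counts that held no outlying library, so that run does not cover the effect of the mitochondria-rich livers. Levels relative to the median ribosomal protein gene are log2 CPM with a prior count of 2. Shared sequence is the percent of 31-base words found in other genes. Start windows come from RefSeq, GRCm38.p6.

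Genes named with values were, by rule, the 5 highest by mean TPM, the 8 largest and 8 smallest log2 changes, listed paralogues with partners, stalk proteins, Rpl5, Rpl11, Rps6, Rps19, Rpsa, every gene not tested, and the 3 smallest p-values of each pathway list. Rpl23a, Rpl12 and Rpl38 were named after their values were seen. A few genes enter the counts but are not reported here by name. The genes and lists were chosen with earlier results of these data known. The 2 mitochondria-rich livers were picked by the mitochondrial shares measured in these same libraries. Alternatives were a block for the replicate number; scaling by library totals, by upper-quartile factors or by DESeq2 size factors; a stricter filter (mean count 50, 1 CPM in 3 libraries) or none; limma-voom (limma 3.58.1), DESeq2 1.42.0, mitochondrial genes removed, copies summed into parents, each library left out, the 2 mitochondria-rich livers left out, and, chosen after seeing the data, the mitochondrial share as a covariate.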

Additional observations from a re-analysis of the deposited data

How the results depend on the processing

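The number of ribosomal protein genes called higher depended on the processing more than their direction did. Against 7 by edgeR with TMM (8.24%, beside 17.4% of all genes), it was 12 with upper-quartile factors (14.1%, beside 20%). It was 15 with DESeq2 (17.6%, beside 19.9%), 13 with limma-voom (15.3%, beside 20%) and 15 in the authors' deposited calls (17.6%, beside 20%). With the mitochondrial share as a covariate, an alternative chosen after seeing the data, it was 17 (20%, beside 22.2%). Without both Sirt5-/- replicate 1 and Sirt5+/+ replicate 3 it was 29 (34.1%, beside 25.1% of all genes), with 1 lower (22.8% of all genes). With the replicate block it was 1, Rpl35 (1.18%, beside 13.4% of all genes), and 3643 of all genes were called either way against 5100 without it. Same-numbered livers deviated from their genotype means with correlations of -0.19, 0.115 and -0.204. The largest correlation between livers of different genotype was 0.266, for Sirt5-/- liver 1 and Sirt5+/+ liver 3. These values cannot settle whether the numbers pair the livers. Leaving out 1 library at a time gave 0 to 29 higher (9.53 to 25.6% of all genes) and 0 to 2 lower (7.21 to 23.4%). Calls over all genes then ran from 2531 to 7647, and the medians from 0.24 to 0.47. The median log2 change was 1.09 with library totals, which left 2763 calls over all genes, 0.56 with upper-quartile factors and 0.54 without both mitochondria-rich livers. The cause of these moves was not tested.

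Genes that were not called with TMM changed sign in some alternatives. Library totals raise all genes, whose median log2 change becomes 0.60. Rps7 and Rps3a2 stayed below 0 in every alternative, with highest values of -0.29 and -0.50. Outside the ribosomal protein genes, Eef2, Mrto4 and Polr3g also stayed below 0 throughout, with highest values of -0.62, -0.071 and -0.22. Other named ribosomal protein genes, paralogues and copies below 0 turned positive with library totals but stayed under that median. Rpl7l1 was then at 0.015, Rpl36al at 0.25, Rps27l at 0.45, Rpl3 at 0.16 and Rpl9 at 0.27. The values were 0.32 for Rps2, 0.54 for Rps4l, 0.55 for Rpl5 and 0.43 for Rps6. With upper-quartile factors they were 0.041 for Rps4l and 0.14 for Rpl5, and with the stricter filter Rpl5 was at 0.013. Without both mitochondria-rich livers Rps27l was at 0.040 and Rps4x at -0.021. With copies summed into parents Rpl10 was at -0.043 and Rps6 at 0.22, and with the covariate Rpl5 was at 0.0019. Over the single libraries left out the values ran from -0.0062 to 0.44 for Fau, -0.22 to 0.61 for Rpl10, -0.0092 to 0.35 for Rpl13a, -0.12 to 0.021 for Rpl5, -0.53 to 0.011 for Rpl9, -0.017 to 0.55 for Rplp0, -0.40 to 0.035 for Rps2, -0.73 to 0.19 for Rps27l, -0.25 to 0.00038 for Rps4l, -0.20 to 0.37 for Rps4x and -0.056 to 0.30 for Rpsa. Of the other alternative values of single named genes, 981 kept direction and side of the threshold, 134 lost the call and 50 gained it.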
